A study of Solanum lycopersicum var. cerasiforme with 6 samples.

Results

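The genes described here are the members of 3 transcription factor families, CO-like (CONSTANS-like), DBB (double B-box) and Dof, in the pericarp of tomato fruits sampled on day 9 of a treatment with ABA, NDGA or water. They were taken by family name from the authors' table of 1343 transcription factor entries in 57 families, and 0 of them were left out for being listed among the ABA-related, ethylene-related or ripening-related genes of the series. This gave 48 entries out of 31571 in the table of all loci, of which 13 were CO-like, 7 DBB and 28 Dof. Of these 48 entries, 2 merge a pair of neighbouring genes, so the entries stand for 50 gene identifiers.

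Mature green fruits of the cherry tomato 'XinTaiyang' (Solanum lycopersicum var. cerasiforme) received an injection of 25 μL per fruit. It held 10 mM ABA, or 1 mM NDGA (nordihydroguaiaretic acid, which blocks the synthesis of ABA), or only distilled water in the CK fruits, and storage was in darkness at 20°C. Each group had 2 libraries, each from RNA pooled over fruits of a separate weekly harvest. The deposited values are the authors' averages of the 2 libraries in FPKM, a fragment count scaled by transcript length and library size, so each gene has 1 value per group and no error. No difference could therefore be set against the spread between replicates, and no test was made. A log2 ratio is the log2 of the ABA or NDGA value over the CK value without a pseudocount, and none was formed with a value listed at 0. An entry was counted as 2-fold higher or lower at an absolute log2 ratio of at least 1 and a mean over the 3 groups of at least 1 FPKM. The fragments behind a value are not known, so the counting error of low values could not be estimated.

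Light and day-length responses are among the known roles of members of the 3 families. CO-like and DBB proteins carry zinc-binding B-box domains. CO-like proteins also carry a CCT domain, through which CONSTANS of Arabidopsis acts in the leaf to switch on the florigen gene FLOWERING LOCUS T in long days, while DBB proteins lack it and in Arabidopsis act with or against the light-response factor HY5 in seedlings. Dof proteins bind DNA through a single zinc finger that recognises AAAG. Among them the cycling Dof factors of Arabidopsis repress CONSTANS, and are removed in the afternoon by the light-sensing F-box protein FKF1 together with GIGANTEA. The roles given below are those of the Arabidopsis genes that the files name as annotation, and tomato genes are not implied to share them.

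The only sequences printed here are the designed primers of the study's quantitative RT-PCR assay for the CO-like gene Solyc07g006630.2, shown because this gene had the highest log2 ratio of the 36 members compared between ABA and CK. The gene is annotated as CONSTANS-like 5, and its locus lies on chromosome 7 from 1494826 to 1496702 (SL2.40). Both primers are 20 bases long and are written 5′ to 3′.
Solyc07g006630.2 forward primer: gtggagtcggtcgttaagtc
Solyc07g006630.2 reverse primer: ccatccctttcatttctgtg

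Across all entries averaging 1 FPKM or more, 1436 of 21442 were 2-fold higher with ABA (6.7%) and 2251 were 2-fold lower (10.5%). With NDGA, 1898 of 21590 were 2-fold higher (8.79%) and 891 were 2-fold lower (4.13%). The fruit identity of the samples was visible in the 8 ripening transcription factors, whose lowest value was 37.8 FPKM in ABA fruits, 80.7 FPKM in NDGA fruits and 78.2 FPKM in CK fruits. LeMADS-RIN, a regulator required for ripening, had 1203 FPKM in ABA fruits and 397 FPKM in NDGA fruits, against 672 FPKM in CK fruits. The seeds had been discarded, yet transcripts annotated as seed storage or oil body proteins were abundant. Of 66 such entries, 15 were listed at 0 with ABA, 10 with NDGA and 14 in CK, and their summed level was 6529 FPKM in ABA fruits and 40251 FPKM in NDGA fruits, against 11508 FPKM in CK fruits. A single entry of Solyc06g073660.2 held 11530 FPKM of the NDGA sum and was listed at 0 in ABA and CK fruits. The sums over all 31571 entries also differed, at 1.32e+07 FPKM with ABA and 6.18e+07 FPKM with NDGA, against 2.34e+07 FPKM in CK. Cruciferin 3 (Solyc03g005580.2), a seed storage globulin, had 25.6 FPKM in ABA fruits and 698 FPKM in NDGA fruits, against 417 FPKM in CK fruits. Of the entries in this list averaging 1 FPKM or more, 5 of 39 were 2-fold higher and 15 were 2-fold lower with ABA, and 27 of 40 were 2-fold higher and 0 lower with NDGA. Many entries of this list carry a superfamily annotation that also covers lipid-transfer proteins. For the 19 entries without it, a subset chosen after the values were seen, the median log2 ratio was -0.33 with ABA and 1.28 with NDGA. Their sums were 3125 FPKM in ABA fruits and 12764.5 FPKM in NDGA fruits, against 5643 FPKM in CK fruits. A lower value of a gene in such bulk tissue can come from fewer cells of a type or from less RNA per cell, which cannot be told apart here.

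The 3 families differed in level. DBB genes were the most abundant, with a median of 17.8 FPKM for the mean over the 3 groups, against 10.3 FPKM for CO-like and 2.73 FPKM for Dof genes. The median over all 31571 entries was 4.36 FPKM. A mean FPKM of at least 1 was reached by 12 of 13 CO-like, 6 of 7 DBB and 19 of 28 Dof entries. Summed over the family, DBB transcripts came to 435 FPKM in ABA fruits and 278 FPKM in NDGA fruits, against 336 FPKM in CK fruits. The sums of the CO-like genes were 137 FPKM with ABA and 160 FPKM with NDGA, against 137 FPKM in CK. Those of the Dof genes were 158 FPKM with ABA and 204 FPKM with NDGA, against 156 FPKM in CK. The CO-like sum joined subgroups that differed. Its genes annotated as CONSTANS-like summed to 29.6 FPKM with ABA and 74.1 FPKM with NDGA, against 45.3 FPKM in CK, and those with the B-box and CCT annotation to 107 FPKM with ABA and 85.6 FPKM with NDGA, against 92.2 FPKM in CK. In CK and NDGA fruits the CONSTANS-like sum rested on the 2 genes annotated as CONSTANS-like 4, which held 79.5% of it in CK and 85.9% with NDGA. In ABA fruits the 2 largest were instead Solyc02g089500.2 and Solyc07g006630.2, which held 62.5% of it. By direction, 3 of the 5 CONSTANS-like genes were below CK with ABA and 2 were above it.

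**Figure D1:**
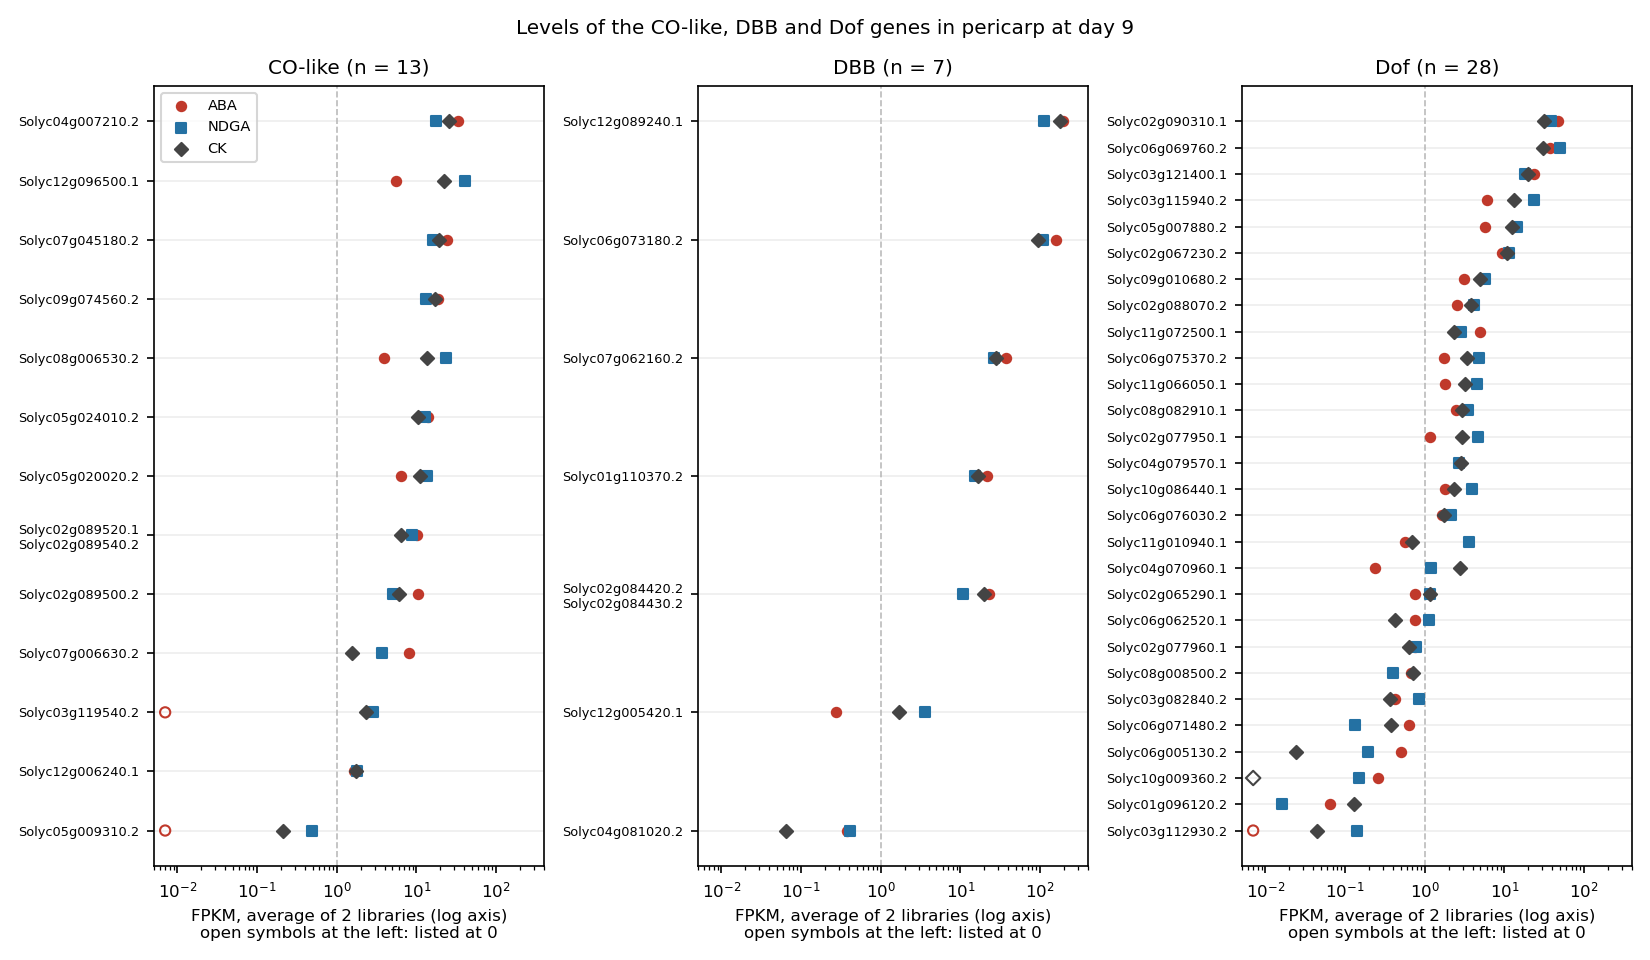
FPKM of all 48 entries on a log axis, by family, with 1 symbol for each group average (circles ABA, squares NDGA, diamonds CK) and the entries ordered by their mean. The dashed line marks 1 FPKM, and open symbols at the left edge are values listed at 0. DBB holds the highest levels, and most Dof entries with a mean of at least 1 FPKM have the ABA symbol to the left of the CK symbol.

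In the comparison of ABA with CK, the CO-like family was split. Both genes annotated as CONSTANS-like 4 were 2-fold or more lower in ABA fruits, the gene annotated as CONSTANS-like 5 was 5.08-fold higher, and most of the other members lay above CK by less than 2-fold. Of the 11 CO-like entries compared, 1 was 2-fold higher and 2 were 2-fold lower, or 9.09% and 18.2%, beside 6.7% and 10.5% of all entries. Their median log2 ratio was 0.33, beside 0.04 for all entries. Solyc03g119540.2, listed at 0 with ABA, is not among the entries compared. With a pseudocount of 0.1 FPKM it had a ratio, and 3 of 12 CO-like entries were 2-fold lower. The share over all entries was not computed with this pseudocount. With so few genes the shares rest on single members.

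Solyc12g096500.1 (chromosome 12, positions 63736404 to 63737572) had 5.58 FPKM in ABA fruits and 40.4 FPKM in NDGA fruits, against 22.4 FPKM in CK fruits. Its log2 ratio was -2.01 with ABA and 0.85 with NDGA. Solyc08g006530.2 (chromosome 8, positions 1142835 to 1144790) had 3.88 FPKM in ABA fruits and 23.2 FPKM in NDGA fruits, against 13.6 FPKM in CK fruits. Its log2 ratios were -1.81 and 0.77. Both carry the annotation CONSTANS-like 4, a gene that delays flowering in Arabidopsis. In CK and NDGA fruits they were among the more abundant CO-like genes, and Solyc12g096500.1 had the highest CO-like level of all in NDGA fruits. In ABA fruits both were below Solyc07g006630.2, the gene that had the lowest level of the 3 in the other groups.

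Solyc07g006630.2 had 7.99 FPKM in ABA fruits and 3.68 FPKM in NDGA fruits, against 1.57 FPKM in CK fruits. Its log2 ratios were 2.35 with ABA and 1.23 with NDGA, so that it was the only CO-like entry with a mean FPKM of at least 1 that was 2-fold higher in both treatments. Its log2 ratio with ABA was above those of 98.4% of all entries. Both ratios share the CK value. Because that value is low, a pseudocount of 1 FPKM lowered the log2 ratios to 1.81 and 0.87, the latter under 2-fold. The CONSTANS-like 5 gene of Arabidopsis can hasten flowering when it is overexpressed.

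A tandem pair of CO-like loci lies on chromosome 2, separated by 1.32 kb. Solyc02g089500.2, annotated as CONSTANS-like 1, the closest relative of CONSTANS in Arabidopsis, had 10.5 FPKM in ABA fruits and 5.01 FPKM in NDGA fruits, against 5.99 FPKM in CK fruits. The merged entry of Solyc02g089520.1 and Solyc02g089540.2 had 10.3 FPKM in ABA fruits and 8.80 FPKM in NDGA fruits, against 6.38 FPKM in CK fruits. Both loci were above CK with ABA by less than 2-fold, with log2 ratios of 0.81 and 0.69, and their log2 ratios with NDGA were -0.26 and 0.46. The values of the merged genes cannot be separated.

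Of the 8 CO-like entries annotated as B-box zinc finger proteins with a CCT domain, 2 were listed at 0 with ABA, and the other 6 were within 2-fold of CK in both treatments. Solyc04g007210.2, the CO-like gene with the highest mean, had 33.3 FPKM in ABA fruits and 17.9 FPKM in NDGA fruits, against 25.6 FPKM in CK fruits. Solyc07g045180.2 had 24.5 FPKM with ABA and 16.3 FPKM with NDGA, against 19.5 FPKM in CK. Solyc09g074560.2 had 18.6 FPKM with ABA and 13.1 FPKM with NDGA, against 16.9 FPKM in CK. In these 3 genes the ABA value was the highest and the NDGA value the lowest, with log2 ratios of 0.14 to 0.38 for ABA and -0.52 to -0.26 for NDGA. Solyc05g024010.2 was above CK in both treatments, at 14.2 FPKM with ABA and 12.7 FPKM with NDGA, against 10.4 FPKM in CK. Solyc05g020020.2 had 6.47 FPKM in ABA fruits and 13.6 FPKM in NDGA fruits, against 10.95 FPKM in CK fruits, but it has a further entry with another pattern.

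At the low end, Solyc12g006240.1, annotated as CONSTANS-like 9, a repressor of flowering in Arabidopsis, had 1.64 FPKM with ABA and 1.78 FPKM with NDGA, against 1.73 FPKM in CK, the closest values of the family. The entries with the B-box and CCT annotation that had no ratio with ABA were also of low level. Solyc03g119540.2 was listed at 0 in ABA fruits, with 2.86 FPKM in NDGA fruits and 2.302 FPKM in CK fruits, so no ratio with ABA was formed. Solyc05g009310.2 was also listed at 0 in ABA fruits, with 0.487 FPKM in NDGA fruits and 0.212 FPKM in CK fruits. With NDGA, 1 of 12 CO-like entries was 2-fold higher and 0 were 2-fold lower, beside 8.79% and 4.13% of all entries, and the median log2 ratio was 0.30.

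The DBB family held the most abundant genes of the set, and 5 of its 6 entries with a mean of at least 1 FPKM were within 2-fold of CK in both treatments. With ABA, 0 were 2-fold higher and 1 was 2-fold lower, beside 6.7% and 10.5% of all entries, and the median log2 ratio was 0.31. With NDGA, 1 was 2-fold higher and 0 were 2-fold lower, beside 8.79% and 4.13% of all entries, and the median was -0.09. By direction alone, 5 of the 6 were above CK with ABA and 4 of the 6 were below CK with NDGA, beside 52.8% and 46.8% of all entries.

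Solyc12g089240.1, annotated as salt tolerance homolog2, a promoter of seedling light responses in Arabidopsis, had 195 FPKM in ABA fruits and 111 FPKM in NDGA fruits, against 177 FPKM in CK fruits. Solyc06g073180.2 had 157 FPKM in ABA fruits and 110 FPKM in NDGA fruits, against 93.3 FPKM in CK fruits. Together this pair made up 81.0% of the DBB sum with ABA and 79.7% with NDGA, against 80.5% in CK. Their log2 ratios with ABA were 0.14 and 0.76, and those with NDGA were -0.67 and 0.23, so the pair parted in NDGA fruits.

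A pair of DBB genes shares the annotation light-regulated zinc finger protein 1, which in Arabidopsis promotes greening and light responses, and these differed from each other. Solyc07g062160.2 had 37.2 FPKM in ABA fruits and 26.6 FPKM in NDGA fruits, against 27.8 FPKM in CK fruits, with log2 ratios of 0.42 and -0.06. Solyc12g005420.1 (chromosome 12, positions 251563 to 253919) had 0.275 FPKM in ABA fruits and 3.58 FPKM in NDGA fruits, against 1.68 FPKM in CK fruits. Its log2 ratios were -2.61 and 1.09, and it was the only DBB entry past 2-fold in either comparison among those with a mean FPKM of at least 1. With a pseudocount of 1 FPKM they were -1.07 and 0.77.

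Among the remaining DBB entries, Solyc01g110370.2 had 21.8 FPKM with ABA and 15.2 FPKM with NDGA, against 16.5 FPKM in CK. The merged entry of Solyc02g084420.2 and Solyc02g084430.2 had 23.0 FPKM with ABA and 10.6 FPKM with NDGA, against 19.7 FPKM in CK, and its log2 ratio with NDGA of -0.89 was the lowest of the family. Solyc04g081020.2, which shares the annotation of the most abundant DBB gene, was barely detected, at 0.374 FPKM with ABA and 0.410 FPKM with NDGA, against 0.0651 FPKM in CK. Levels of this size were not read as a difference.

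The Dof family was the one in which most members lay below CK with ABA. Of 19 Dof entries with a mean of at least 1 FPKM, 15 were below CK in ABA fruits, beside 47.2% of all entries, and the median log2 ratio was -0.40, beside 0.04 for all entries. With NDGA 15 of the 19 were above CK, beside 53.2% of all entries, and the median was 0.26, beside 0.03. By the 2-fold count, 1 Dof entry was higher and 4 were lower with ABA, or 5.26% and 21.1%, beside 6.7% and 10.5% of all entries. With NDGA 1 was higher and 1 was lower, or 5.26% each, beside 8.79% and 4.13% of all entries. Of the transcription factors outside the 3 families, 50.6% were below CK and 13.7% were 2-fold lower with ABA, and 55.7% were above CK with NDGA. The values below CK with ABA lay mostly among genes of low level, but those 2-fold lower did not. Of the 6 Dof entries with a mean of at least 5 FPKM, 2 were 2-fold lower with ABA, beside 6.55% of all entries at that bound. Their median log2 ratio was 0.02, so the median of the family rests on the entries between 1 and 5 FPKM. No test stands behind these counts, and both comparisons share the CK values.

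**Figure D2:**
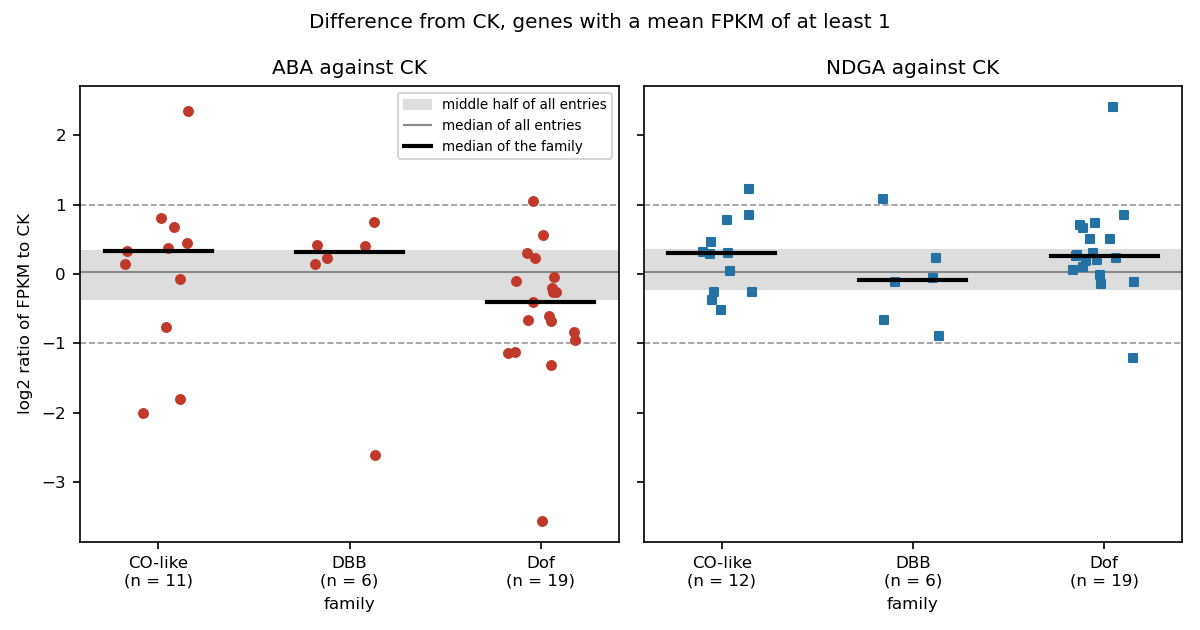
Log2 ratios of FPKM to CK for the members with a mean of at least 1 FPKM, by family, with ABA on the left and NDGA on the right. Black bars are family medians, the grey band spans the lower to the upper quartile of all entries, and dashed lines mark a 2-fold difference. The Dof median lies at -0.40 with ABA and 0.26 with NDGA, while CO-like and DBB medians are 0.33 and 0.31 with ABA.

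The 5 Dof genes annotated as cycling DOF factors were among the more abundant Dof genes, and all 5 had a mean of at least 1 FPKM. Solyc03g115940.2, annotated as cycling DOF factor 3 (chromosome 3, positions 59566769 to 59569400), had 5.97 FPKM in ABA fruits and 23.6 FPKM in NDGA fruits, against 13.1 FPKM in CK fruits. Solyc05g007880.2 (chromosome 5, positions 2319571 to 2322304), annotated as cycling DOF factor 2, had 5.76 FPKM in ABA fruits and 14.3 FPKM in NDGA fruits, against 12.5 FPKM in CK fruits. Both were 2-fold lower with ABA, at log2 ratios of -1.14 and -1.12, and had log2 ratios of 0.85 and 0.19 with NDGA.

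The other 3 cycling DOF factor genes carry the same annotation as Solyc05g007880.2 and stayed within 2-fold of CK. Solyc06g069760.2 was the most abundant of them, at 37.2 FPKM in ABA fruits and 49.3 FPKM in NDGA fruits, against 30.3 FPKM in CK fruits, and was the only one of the 5 above CK with ABA. Solyc02g067230.2 had 9.45 FPKM with ABA and 11.3 FPKM with NDGA, against 10.9 FPKM in CK. Solyc02g088070.2 had 2.53 FPKM with ABA and 4.14 FPKM with NDGA, against 3.85 FPKM in CK. With NDGA all 5 cycling DOF factor genes were above CK, beside 53.2% of all entries, with log2 ratios from 0.06 to 0.85. Their median of 0.19 lay between the quartiles of all entries, which were -0.21 and 0.35. Cycling Dof transcripts vary over the day in Arabidopsis, and the hour of sampling is not given in the sources used here.

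Outside this subgroup, the lowest log2 ratio with ABA of any member was that of Solyc04g070960.1 (chromosome 4, positions 55346931 to 55347735). This gene had 0.236 FPKM in ABA fruits and 1.21 FPKM in NDGA fruits, against 2.77 FPKM in CK fruits, with log2 ratios of -3.56 and -1.20, and was the only member 2-fold lower in both treatments among those with a mean FPKM of at least 1. It passed the bound on the mean only through its CK and NDGA values. Its 2 ratios share the CK value, and with a pseudocount of 1 FPKM they were -1.61 and -0.78 in log2. Solyc02g077950.1 had 1.18 FPKM with ABA and 4.60 FPKM with NDGA, against 2.91 FPKM in CK, log2 ratios of -1.31 and 0.66. It was not 2-fold lower with ABA with a pseudocount of 1 FPKM, at a log2 ratio of -0.85, nor in its further entry, at -0.68. It lies on chromosome 2, 14.8 kb from another Dof gene, Solyc02g077960.1, which had 0.753 FPKM with ABA and 0.772 FPKM with NDGA, against 0.625 FPKM in CK, and carries the annotation OBF binding protein 4.

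A pair of Dof genes annotated as TARGET OF MONOPTEROS 6, a factor of vascular development in Arabidopsis, lay on opposite sides of CK with ABA. Solyc11g072500.1 had 4.91 FPKM in ABA fruits and 2.82 FPKM in NDGA fruits, against 2.36 FPKM in CK fruits. Its log2 ratio of 1.06 with ABA made it the only Dof entry 2-fold higher with ABA among those with a mean FPKM of at least 1, and was 0.82 with a pseudocount of 1 FPKM. Solyc06g075370.2 had 1.74 FPKM in ABA fruits and 4.81 FPKM in NDGA fruits, against 3.38 FPKM in CK fruits, with a log2 ratio of -0.96 with ABA. Both were above CK with NDGA, at log2 ratios of 0.26 and 0.51.

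Solyc11g010940.1 (chromosome 11, positions 3987714 to 3989810) had 0.568 FPKM in ABA fruits and 3.63 FPKM in NDGA fruits, against 0.683 FPKM in CK fruits. Its log2 ratio of 2.41 with NDGA was the highest of the members with a mean of at least 1 FPKM, a bound that it passed only through its NDGA value. The pair annotated as OBF-binding protein 3, which takes part in phytochrome and cryptochrome signalling in Arabidopsis, lay below CK with ABA and above it with NDGA. Solyc11g066050.1 had 1.80 FPKM with ABA and 4.57 FPKM with NDGA, against 3.22 FPKM in CK. Solyc06g076030.2 had 1.63 FPKM with ABA and 2.12 FPKM with NDGA, against 1.74 FPKM in CK.

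Among further Dof genes of this range, 3 showed the same order of the groups within 2-fold of CK, with ABA lowest and NDGA highest. Solyc09g010680.2 had 3.13 FPKM with ABA and 5.75 FPKM with NDGA, against 5.01 FPKM in CK. Solyc10g086440.1, annotated as DNA binding with one finger 2.4, had 1.78 FPKM with ABA and 3.90 FPKM with NDGA, against 2.35 FPKM in CK. Solyc08g082910.1 had 2.45 FPKM with ABA and 3.45 FPKM with NDGA, against 2.94 FPKM in CK. In these 3 genes the log2 ratios were between -0.68 and -0.26 for ABA and between 0.20 and 0.73 for NDGA. Other genes of the range did not show this order, as their NDGA values were not above CK. Solyc04g079570.1, annotated as OBF binding protein 1, which promotes cell cycle entry in Arabidopsis, had 2.79 FPKM with ABA and 2.66 FPKM with NDGA, against 2.88 FPKM in CK. Solyc02g065290.1 had 0.744 FPKM with ABA and 1.17 FPKM with NDGA, against 1.17 FPKM in CK.

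The most abundant Dof genes were above CK with ABA. Solyc02g090310.1 had the highest mean of the family and stood at 46.9 FPKM in ABA fruits and 38.9 FPKM in NDGA fruits, against 31.6 FPKM in CK fruits. Solyc03g121400.1, annotated as DOF zinc finger protein 1, had 23.5 FPKM in ABA fruits and 18.1 FPKM in NDGA fruits, against 19.9 FPKM in CK fruits. The log2 ratios of these genes with ABA were 0.57 and 0.24.

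Of the 9 Dof entries with a mean below 1 FPKM, 5 exceeded 0.5 FPKM in at least one group and are named with values. Besides Solyc02g077960.1 these were Solyc06g062520.1, at 0.757 FPKM with ABA and 1.14 FPKM with NDGA, against 0.427 FPKM in CK, and Solyc08g008500.2, at 0.665 FPKM with ABA and 0.399 FPKM with NDGA, against 0.714 FPKM in CK. Solyc03g082840.2 had 0.421 FPKM with ABA and 0.853 FPKM with NDGA, against 0.367 FPKM in CK. Solyc06g071480.2 had 0.635 FPKM with ABA and 0.135 FPKM with NDGA, against 0.373 FPKM in CK. The remaining 4 had means from 0.0613 to 0.239 FPKM, and 1 of the 9 was listed at 0 with ABA and 1 in CK.

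Set side by side over all 3 families, 2 of 36 entries were 2-fold higher and 7 were 2-fold lower with ABA, or 5.56% and 19.4%, beside 6.7% and 10.5% of all entries. With NDGA 3 of 37 were 2-fold higher and 1 was 2-fold lower, or 8.11% and 2.70%, beside 8.79% and 4.13% of all entries. The other transcription factors of the authors' table stood at 5.50% higher and 13.7% lower with ABA, and at 8.86% higher and 2.56% lower with NDGA. The shares of the 3 families with NDGA and of entries 2-fold higher with ABA were thus near those of all entries and of the other transcription factors, and the share of lower values with ABA was above both by a few genes. Without the bound on the mean, 4 of 44 entries were 2-fold higher and 7 were lower with ABA, beside 9.59% and 13.9% of all entries. With NDGA 9 of 47 were higher and 3 were lower, beside 14.2% and 6.22%. At a bound of 5 FPKM, 0 of 20 were 2-fold higher and 4 lower with ABA, beside 4.53% and 6.55% of all entries. With NDGA 0 of 20 were higher and 0 lower, beside 5.23% and 2.83%. At a log2 threshold of 1.5, 1 was higher and 4 were lower with ABA, beside 3.57% and 6.05%, and 1 was higher and 0 lower with NDGA, beside 4.48% and 2.15%. Beside these values, the seed list had a median log2 ratio of -0.75 with ABA and 1.26 with NDGA, and the photosystem and light-harvesting list had medians of -1.47 and 0.36. The part of either in the values of the 3 families was not tested.

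Of the 48 members, 8 have more than 1 entry at the same locus in the table of all loci, with different values, and the table of transcription factors lists 1 of them. Solyc05g020020.2 is listed at 6.47 FPKM with ABA against 10.95 FPKM in CK, a log2 ratio of -0.76. Its further entry has 6.92 FPKM with ABA against 4.39 FPKM in CK, a log2 ratio of 0.65, so the direction with ABA depends on the entry, and the sum of both had a log2 ratio of -0.20. For Solyc12g005420.1 the further entry was more abundant, at 2.35 FPKM with ABA and 8.39 FPKM with NDGA, against 5.08 FPKM in CK. It lay on the same side of CK as the listed entry in both comparisons, and the summed log2 ratios were -1.37 with ABA and 0.82 with NDGA. The further entry of Solyc11g010940.1 had 0.367 FPKM with ABA and 3.65 FPKM with NDGA and was listed at 0 in CK. For Solyc05g007880.2 both entries were 2-fold lower with ABA, at log2 ratios of -1.12 and -1.23. The direction of Solyc03g121400.1 with NDGA depended on the entry, at log2 ratios of -0.14 in the listed entry and 0.53 in the further one. What separates the entries of a locus is not given in the sources used here.

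**Figure D3:**
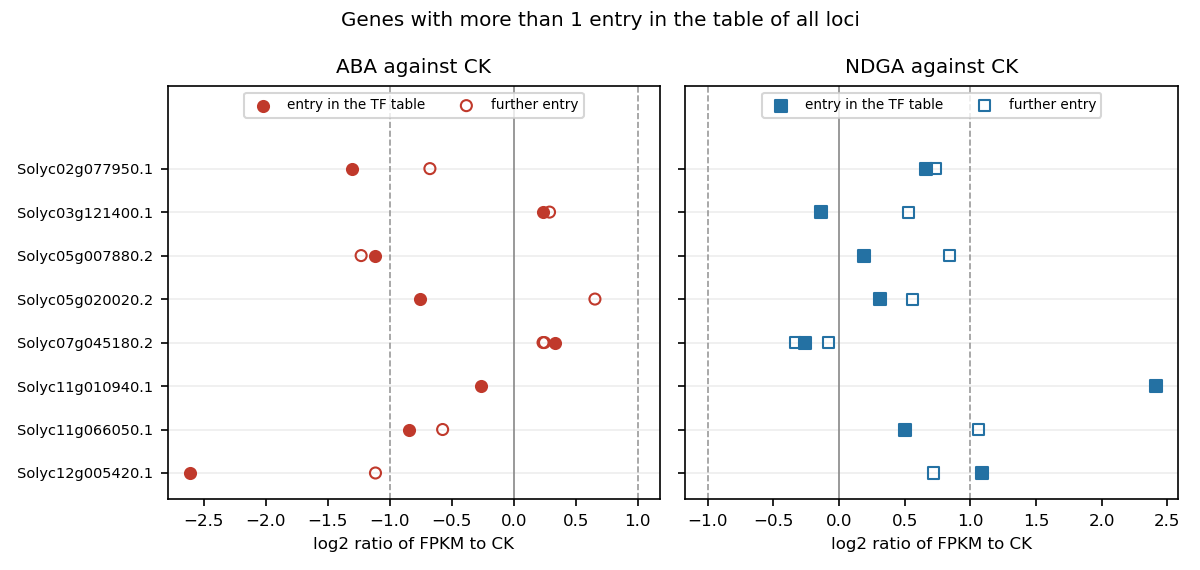
Log2 ratios of FPKM to CK for the 8 genes with more than 1 entry, with ABA on the left and NDGA on the right. Filled symbols are the entries used in the text and open symbols the further entries, and a further entry listed at 0 in CK has no symbol. With ABA the entries of Solyc05g020020.2 lie on opposite sides of 0, at -0.76 and 0.65.

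The partners of these families in light and clock signalling were taken from lists over the annotation. The circadian rhythm pathway of KEGG held 16 further entries. With ABA 0 were 2-fold higher and 2 were 2-fold lower, beside 6.7% and 10.5% of all entries, and with NDGA 0 were higher and 0 lower, beside 8.79% and 4.13%. The medians were -0.05 and 0.04. One of its 2 GIGANTEA genes, Solyc12g056650.1, had 8.56 FPKM in ABA fruits and 21.1 FPKM in NDGA fruits, against 17.5 FPKM in CK fruits, a log2 ratio of -1.03 with ABA. The other, Solyc04g071990.2, had 17.9 FPKM in ABA fruits and 14.9 FPKM in NDGA fruits, against 17.0 FPKM in CK fruits, a log2 ratio of 0.08 with ABA.

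The list of photoreceptors and photomorphogenesis factors, which shares genes with the pathway, held 36 entries. Of the 33 with a mean of at least 1 FPKM, 0 were 2-fold higher and 7, from 6 genes, were 2-fold lower with ABA, beside 6.7% and 10.5% of all entries. With NDGA 2 were higher and 0 lower, beside 8.79% and 4.13%. A gene annotated as cryptochrome 1, a blue light receptor (Solyc12g057040.1), has 2 entries, and the more abundant had 1.76 FPKM in ABA fruits and 24.8 FPKM in NDGA fruits, against 11.9 FPKM in CK fruits. Another gene with this annotation, Solyc04g074180.2, was the most abundant of the list, at 95.8 FPKM in ABA fruits and 54.9 FPKM in NDGA fruits, against 68.0 FPKM in CK fruits, and is named after its values were seen. Phototropin 1 (Solyc11g072710.1), the blue light receptor of phototropism, had 10.2 FPKM in ABA fruits and 39.7 FPKM in NDGA fruits, against 26.7 FPKM in CK fruits. Phytochrome-associated protein 2 (Solyc12g007230.1) had 2.52 FPKM with ABA and 9.84 FPKM with NDGA, against 9.47 FPKM in CK. The entry of Solyc12g057040.1, phototropin 1 and phytochrome-associated protein 2 had log2 ratios of -2.75, -1.39 and -1.91 with ABA, and that of Solyc04g074180.2 was 0.49, while the median of the list was -0.0027.

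Of 7 further entries annotated as B-box genes, 5 had a mean of at least 1 FPKM, with 1 of them 2-fold lower with ABA and 1 with NDGA, beside 10.5% and 4.13% of all entries. The one lower with NDGA was Solyc10g006750.2, at 13.6 FPKM in ABA fruits and 4.57 FPKM in NDGA fruits, against 9.19 FPKM in CK fruits. The PEBP family, which holds FLOWERING LOCUS T and related proteins, stood further from CK. Its 6 entries with a mean of at least 1 FPKM come from 4 genes, and entries of one locus were counted separately. With NDGA 4 entries, from 3 genes, were 2-fold higher and 0 lower, beside 8.79% and 4.13% of all entries. With ABA 5 entries could be compared, of which 0 were 2-fold higher and 3, from 2 genes, were 2-fold lower, beside 6.7% and 10.5%.

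Among the PEBP genes, Solyc03g063100.1 had 20.3 FPKM in ABA fruits and 62.5 FPKM in NDGA fruits, against 53.3 FPKM in CK fruits in its more abundant entry. Solyc02g079290.2 had 13.5 FPKM with ABA and 43.0 FPKM with NDGA, against 18.8 FPKM in CK, and Solyc09g005060.1 had 16.4 FPKM with ABA and 33.3 FPKM with NDGA, against 13.9 FPKM in CK. The more abundant entry of Solyc03g119100.1 had 2.20 FPKM with ABA and 17.4 FPKM with NDGA, against 4.85 FPKM in CK. In NDGA fruits all 4 were above CK, with log2 ratios from 0.23 to 1.84. The seed storage and oil body entries were also above CK in NDGA fruits, and their part in these values was not tested.

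**Figure D4:**
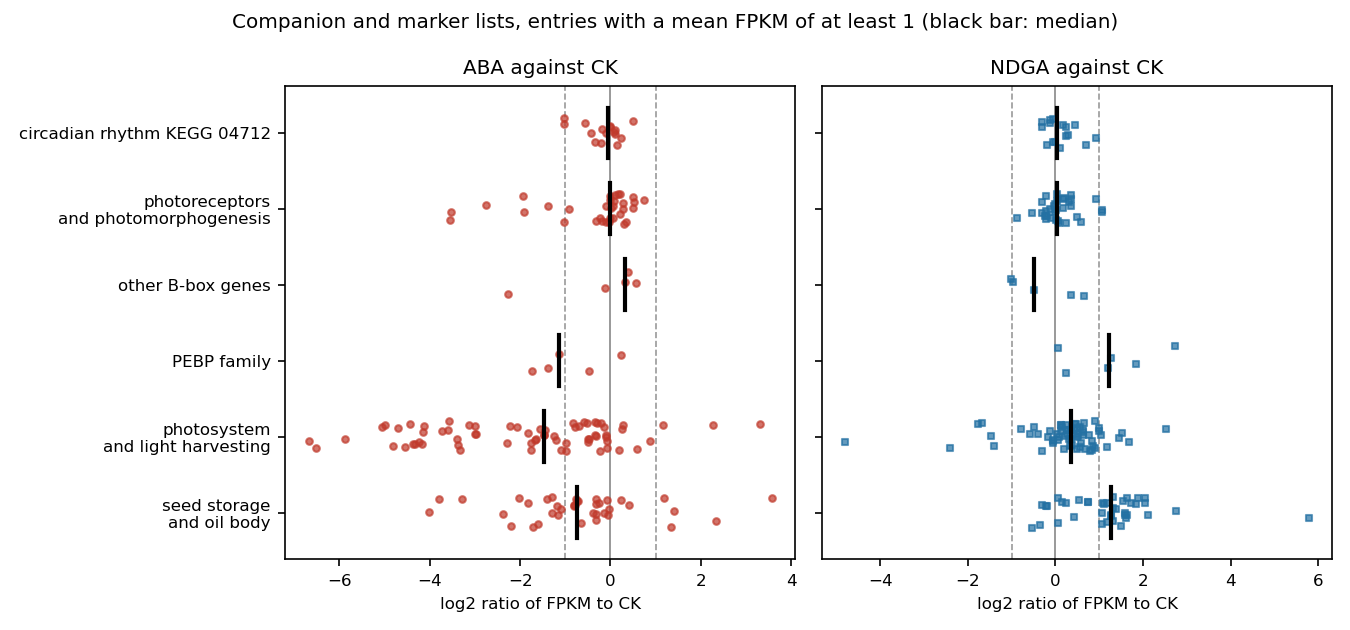
Log2 ratios of FPKM to CK for entries with a mean of at least 1 FPKM in 4 lists of signalling partners and in the photosystem and seed lists, with ABA on the left and NDGA on the right. Each point is an entry, black bars are list medians, and dashed lines mark a 2-fold difference. The medians of the circadian list are -0.05 and 0.04, those of the PEBP family -1.14 and 1.23, and those of the seed list -0.75 and 1.26.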

How the data were processed

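RNA-seq of pericarp was analysed in 3 groups (ABA, NDGA and CK) of 2 libraries each. According to the submitters' processing notes and the paper's methods, the authors aligned clean reads with TopHat2 2.0.9 to tomato SL2.40 (ITAG2.3) and computed FPKM with Cufflinks 2.1.1, and the deposited FPKM are the averages of the 2 replicates. All 5 deposited tables were read. The smaller tables also hold the authors' own calls of change, which were not used. The members had the same values in both tables that list them (0 differences). Levels, ratios and counts were computed with Python 3.11.15, numpy 2.4.6 and pandas 2.3.3. Since there is 1 value per group, no test, interval or analysis by replicate was made, and depth per entry is unknown. The counting was tested on simulated data. Alternatives were no bound or a bound of 5 on the mean FPKM, a pseudocount of 0.1 or 1, a log2 threshold of 1.5, ratios centred on the median of all entries, and single-gene entries. Summing over the entries of a gene was added after seeing the data. Named were all CO-like and DBB entries, Dof entries with a mean of at least 1 FPKM or a value above 0.5 FPKM, and up to 5 entries per list and comparison with a mean of at least 5 FPKM and a 2-fold difference. Members and lists were chosen with earlier results of these data known. Of the members, 0 could be matched to RefSeq genes, so promoters and proteins were not used here.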

Additional observations from a re-analysis of the deposited data

How the results depend on the processing

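No paired analysis was possible because the files hold 1 average per group, and for the same reason no replicate could be left out. Counts of 2-fold differences moved most with the bound on the mean FPKM. Without it, entries higher with ABA numbered 4 of 44 (DBB 1, Dof 2), those higher with NDGA 9 of 47 (CO-like 2, DBB 2, Dof 5) and those lower with NDGA 3 (Dof 3). With a bound of 5 FPKM, 0 of 20 entries were higher with ABA, 4 were lower with ABA (DBB 0, Dof 2), and 0 were higher and 0 lower with NDGA in any family, while the median log2 ratio with ABA was 0.27 over all members and 0.018 over Dof. A pseudocount of 1 left 1 of 37 entries higher with ABA (Dof 0) and 1 of 37 higher and 0 lower with NDGA (CO-like and DBB 0 higher, Dof 0 lower). The share over all entries was not computed with a pseudocount, so these counts have no such value beside them. At a log2 threshold of 1.5, 1 entry was higher (Dof 0) and 4 lower (Dof 1) with ABA, and 1 was higher (CO-like 0, DBB 0) and 0 lower with NDGA. The shares of all entries for the bounds and for this threshold are given above with the counts over all 3 families. Summing entries left 0 DBB entries higher with NDGA. A pseudocount of 0.1, centring on the median of all entries and single-gene entries moved none of these counts by more than 1.5 times and no median by 0.25 or more. With a pseudocount of 0.1, 8 of 37 entries were 2-fold lower with ABA, as Solyc03g119540.2 then had a ratio. Of 76 log2 ratios of the CO-like and DBB members and the Dof members averaging 1 FPKM or more, 13 moved by 0.25 or more with a pseudocount of 1 and 5 with 0.1. Of the 16 past 2-fold at any level, 8 fell under it with a pseudocount of 1, among them Solyc02g077950.1 and Solyc11g072500.1 with ABA and Solyc07g006630.2, Solyc12g005420.1 and Solyc04g070960.1 with NDGA, and 1 with 0.1. None of the 16 reversed.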

Other observations

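The annotated loci on either side of each member past 2-fold were read as a description of its surroundings, a choice made after the members' values had been seen. Around the 9 members past 2-fold with ABA there were 18 such loci, of which 16 had values above 0 in ABA and CK fruits and 5 were also 2-fold different from CK in the direction of the member, without a bound on their level. Over all entries without a bound, 13.9% were 2-fold lower and 9.59% 2-fold higher with ABA. Among the 5, those beside Solyc04g070960.1 lay 134070 and 70083 bp away. The farther one had 0.00688 FPKM in ABA fruits against 0.0321 FPKM in CK fruits. Both neighbours of the CO-like gene Solyc08g006530.2 were of low level and lower with ABA. Solyc08g006520.1 had 0.483 FPKM in ABA fruits against 1.09 FPKM in CK fruits, and Solyc08g006540.2 had 1.33 FPKM in ABA fruits against 3.68 FPKM in CK fruits. The neighbours of the CO-like gene Solyc12g096500.1 were not lower. Solyc12g096520.1 had 57.1 FPKM in ABA fruits against 52.0 FPKM in CK fruits, and Solyc12g096490.1 had 1.47 FPKM in ABA fruits against 0.557 FPKM in CK fruits. Next to Solyc03g115940.2, annotated as cycling DOF factor 3, Solyc03g115930.1 stood the other way, at 83.8 FPKM in ABA fruits against 23.2 FPKM in CK fruits.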
